A study of Mus musculus with 48 samples.

Results

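The comparison covered the 4 h step from CT12 to CT16 in mouse kidney, with 8 libraries of CT16 set against 8 of CT12, out of 48 libraries in the series. Circadian time (CT) is counted by the animal's own clock, and by convention CT12 opens the subjective night, when mice become active. The 16 libraries were chosen by their time labels, with no measured value used, and held 4 D-Ala CT16, 4 Vehicle CT16, 4 D-Ala CT12 and 4 Vehicle CT12 kidneys. All were labelled WT, and D-Ala stands for D-alanine, an amino acid that mirrors the common L-alanine. The labels give no dose, route, strain, age or sex, and nothing used here states the lighting. By the series text the kidneys were of different mice and the experiment was done 2 times. The values came in 2 tables with 2 libraries of every group in each, and the tables were taken as the 2 runs, which is an inference. Whole kidney was used, so fewer cells of a type and less RNA per cell cannot be told apart.

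The cell-autonomous clock is a loop in which CLOCK and BMAL1 (the product of Arntl) activate the Per, Cry and Nr1d genes, whose products then shut down that activity. The D-box activators DBP, TEF and HLF and their competitor NFIL3 pass the rhythm on to other genes, and REV-ERB and ROR receptors compete at the promoters of Arntl and other targets. In kidney the clock is known to act on tubular transport, heat shock chaperones are known to follow body temperature, and chaperones of the endoplasmic reticulum (ER) the load of secreted protein.

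Depth recovered from the values was 7626042 to 13428958 fragments per library (median 11260374), with D-Ala CT16 replicate 1 the shallowest, and this library also stood apart in a principal component analysis. Values are FPKM, fragments scaled to gene length and library total, and changes are CT16 minus CT12 on the log2(FPKM + 1) scale with their SE, which understates the change of low genes. Genes were called with limma at an adjusted p under 0.05. The share of FPKM in mitochondrially encoded genes, which scales all other values, was 29.2 ± 12.1% at CT16 and 30.0 ± 13.9% at CT12 (SD, n = 8 each). These SDs largely held the difference between tables. The share was 39.9 ± 5.42% at CT16 and 42.7 ± 4.32% at CT12 in the first table. In the second table it was 18.5 ± 2.35% at CT16 and 17.3 ± 1.61% at CT12. The difference of -0.803 points had a two-sided exact permutation p of 0.662 over 1296 arrangements within treatment and table. The 7 markers of proximal tubule segments S1 and S2 summed to 1886 to 2322 FPKM at CT16 and 2175 to 3505 FPKM at CT12, and the 5 of segment S3 to 422 to 831 FPKM at CT16 and 335 to 785 FPKM at CT12, with all 12 detected. Slc34a1 alone made up most of the S1 and S2 sum, at 1610 to 1938 FPKM at CT16 and 1835 to 3018 FPKM at CT12. The 5 inner medulla markers summed to 22.3 to 237 FPKM at CT16 and 9.27 to 170 FPKM at CT12, with a median of 81.7 FPKM at CT16 and 19.6 FPKM at CT12. Inner medulla markers thus varied widely between libraries and were higher in the median at CT16.

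Of 14922 genes tested, 367 passed (2.46%), with 224 higher (1.5%) and 143 lower (0.958%) at CT16, and 2260 had an unadjusted p under 0.05. Under scalings that centre each library, the balance of calls was different, with 131 higher and 239 lower after quantile normalization and 114 higher and 267 lower after median centring. Without D-Ala CT16 replicate 1 there were 243 higher and 141 lower, and the libraries whose absence moved a count by more than 1.5 times were Vehicle CT12 replicate 3 (140 higher, 71 lower), D-Ala CT12 replicate 1 (148 higher, 74 lower), D-Ala CT16 replicate 3 (89 lower) and Vehicle CT16 replicate 2 (88 lower). Changes were mostly moderate, with a median of 0.40 among genes called higher and -0.39 among those called lower, and 7 of the higher and 5 of the lower genes reached 2-fold. The median of all genes tested was 0.048, with 63.6% above 0. In 356 of the 367, the means moved the same way in all 4 combinations of treatment and table. The calls pool these same 4 combinations, so such agreement is in large part built in, and its share over all genes is not given. For 43 genes (0.288% of those tested) every CT16 library lay above every CT12 library, and 34 of them were among the genes called higher. For 19 genes (0.127%) every CT16 library lay below, and 18 of them were called lower.

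The strongest changes were in the clock. Of 20 core clock genes tested, 4 were higher and 6 lower at CT16, all 10 without overlap between the libraries of the 2 times. With members moving both ways, the median of the list was -0.04, beside 0.05 for all genes.

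Among the output factors and repressors that fell, Dbp (chromosome 7, 45705088 to 45710203), the D-box activator, had 10.4, 17.2 and 19.5 FPKM as the lowest, median and highest of 8 libraries at CT16, against 63.6, 72.9 and 94.6 FPKM at CT12. On the log2(FPKM + 1) scale this was the largest fall among the genes called, with a change of -2.13 ± 0.19 (adjusted p = 8.48e-10), or 0.228 times the CT12 level on the FPKM + 1 scale. Ciart, a repressor of CLOCK and BMAL1, had 1.55, 2.01 and 2.81 FPKM at CT16, against 8.15, 11.9 and 21.6 FPKM at CT12, a change of -2.10 ± 0.17 (adjusted p = 1.31e-10). The highest Ciart library of CT16 stood far below the lowest of CT12, and the highest of all was D-Ala CT12 replicate 1.

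Per1, a period repressor that responds within hours to many stimuli, had 4.85, 7.08 and 10.5 FPKM at CT16, against 14.2, 17.5 and 21.4 FPKM at CT12 (-1.15 ± 0.14, adjusted p = 5.71e-06). Its paralogs did not pass. Per3 was at a median of 7.12 FPKM at CT16 and 8.94 FPKM at CT12 (-0.37 ± 0.13, adjusted p = 0.140), and Per2 at 26.1 FPKM at CT16 and 21.4 FPKM at CT12 (0.35 ± 0.13, adjusted p = 0.153).

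Both REV-ERB genes fell. Nr1d1, which encodes REV-ERB alpha, had 5.03, 8.2 and 10.9 FPKM at CT16, against 15.2, 19.2 and 22.4 FPKM at CT12 (-1.18 ± 0.23, adjusted p = 0.00245), and Nr1d2 (REV-ERB beta) had medians of 15.2 FPKM at CT16 and 22.1 FPKM at CT12 (-0.61 ± 0.14, adjusted p = 0.0125). Nr1d1 overlaps the gene Thra on the other strand, and no source used here says if strand was kept in the libraries. Other named genes that overlap an annotated gene on the opposite strand, and whose values are uncertain for the same reason, include Dbp, Ciart, Tef, Arntl, Cry2, Manf, Hsp90b1, Syvn1, Pdia6, Dnaja1, Chordc1, Slc16a6, Cyp24a1, Slc6a19, Slc7a7, Mt2, Usp2, Car9 and Tnfaip8. Tef, another D-box activator, had a median of 45.5 FPKM at CT16 and 63.6 FPKM at CT12 (-0.49 ± 0.10, adjusted p = 0.00424). For the third activator, Hlf, the change of -0.14 ± 0.12 did not pass (adjusted p = 0.583).

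The arm of the loop that rose held the activators. Arntl, which encodes BMAL1, had 0.691, 1.18 and 1.42 FPKM at CT16, against 0.138, 0.202 and 0.572 FPKM at CT12 (0.78 ± 0.11, adjusted p = 2.44e-05). Its level was low at both times and the ranges were still apart. Clock, its partner, had medians of 2.50 FPKM at CT16 and 1.70 FPKM at CT12 (0.39 ± 0.08, adjusted p = 0.00245). Npas2, a paralog of Clock, did not pass the test (0.33 ± 0.13, adjusted p = 0.176), although its range was 0.356 to 0.680 FPKM at CT16 and 0.105 to 0.262 FPKM at CT12, with no overlap.

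Of the remaining risers, Nfil3, the D-box repressor, had 2.98, 5.27 and 7.32 FPKM at CT16, against 0.683, 1.89 and 2.86 FPKM at CT12 (1.12 ± 0.18, adjusted p = 0.000261). Thus the D-box repressor was higher and 2 of 3 D-box activators were lower at CT16. Cry1, the cryptochrome repressor, had medians of 3.98 FPKM at CT16 and 2.16 FPKM at CT12 (0.64 ± 0.15, adjusted p = 0.0111), whereas its paralog Cry2 was at 4.93 FPKM at CT16 and 5.0 FPKM at CT12 (-0.06 ± 0.14, adjusted p = 0.874). The other members tested (Rora, Bhlhe40, Bhlhe41, Csnk1d and Csnk1e) had changes between -0.27 and 0.30 and did not pass. All 10 clock calls held when any 1 of the 16 libraries was left out.

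**Figure D1:**
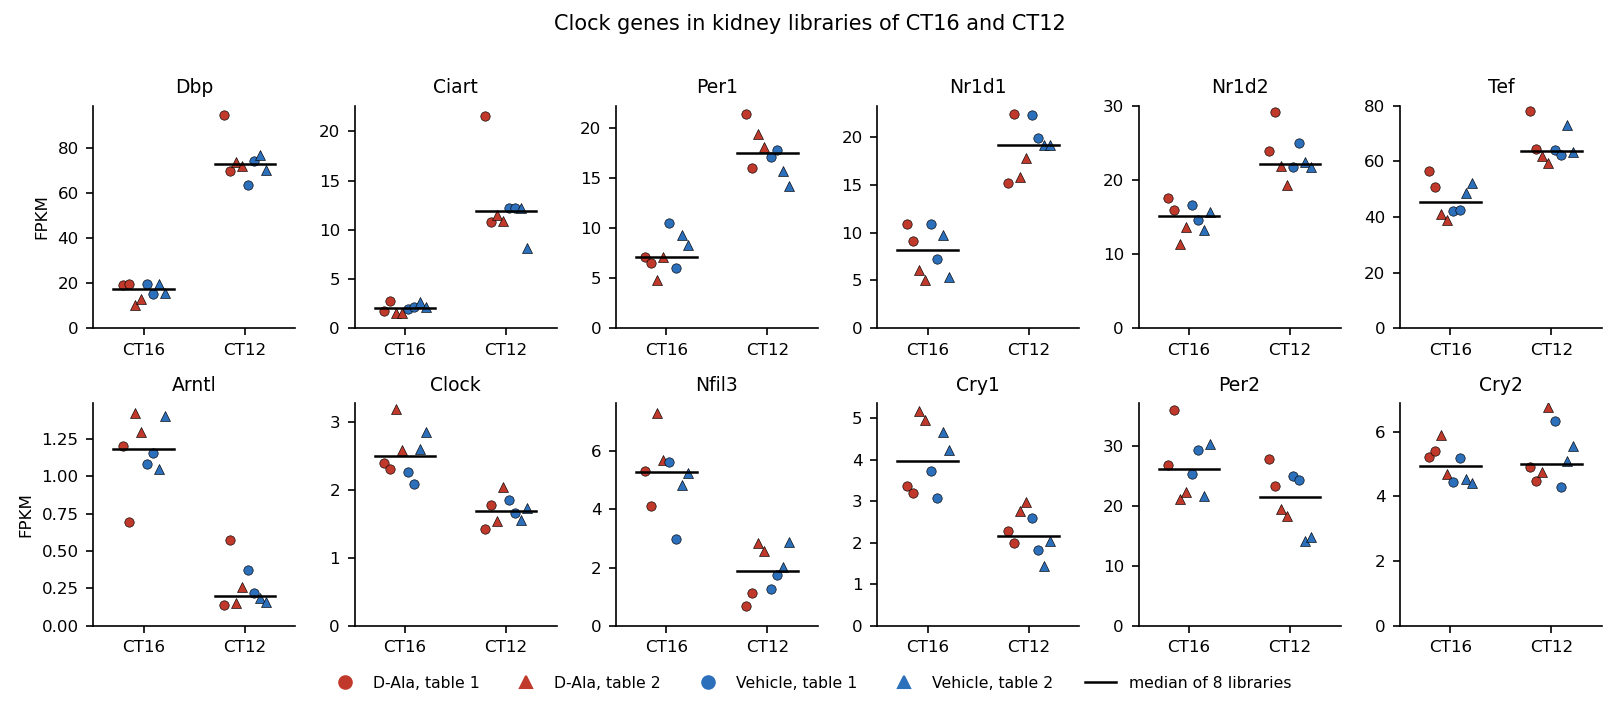
FPKM (vertical axes, linear from 0) of 12 clock genes in each library of CT16 (left) and CT12 (right), with colour for treatment, shape for table and a bar at the median of 8 libraries. The 8 libraries of CT16 stand apart from the 8 of CT12 for 10 of the genes, below them from Dbp to Tef and above them from Arntl to Cry1, while Per2 and Cry2, shown as clock genes that did not pass, overlap.

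Promoter sequences are shown for clock genes that carried the E-box CACGTG, the site bound by CLOCK and BMAL1, since called clock genes of both directions held it. Windows were the 250 bases upstream of each start in RefSeq (GRCm38.p6), searched on both strands, and 9856 of the genes tested had at least 1. A gene with several starts was counted once, as holding a motif if any of its windows did. Of the genes with a window, 9.87% held the E-box, with 12 of 155 called higher (7.74%) and 16 of 104 called lower (15.4%). It was in 5 of 17 core clock genes (29.4%), the 4 shown and Bhlhe41, which did not pass. Each stretch is given 5′ to 3′ on the strand of the gene, with 1 E-box in capitals. The Ciart window held 3 E-boxes, of which 1 is shown. Tef also held an E-box upstream of another start, which is not shown. The first 3 genes fell and Cry1 rose, and the stretches lie at chr11:69098743-69098828 (plus strand), chr3:95882299-95882384 (minus), chr15:81811236-81811321 (plus) and chr10:85185069-85185154 (minus).
Per1: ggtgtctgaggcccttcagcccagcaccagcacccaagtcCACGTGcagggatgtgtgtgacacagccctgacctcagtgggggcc
Ciart: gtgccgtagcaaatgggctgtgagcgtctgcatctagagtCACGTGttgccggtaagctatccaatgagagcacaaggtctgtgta
Tef: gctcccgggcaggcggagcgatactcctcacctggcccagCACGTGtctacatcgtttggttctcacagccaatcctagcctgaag
Cry1: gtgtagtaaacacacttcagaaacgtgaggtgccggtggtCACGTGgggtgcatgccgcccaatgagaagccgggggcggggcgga
The D-box (TTATGTAA or TTACGTAA) was in 0.781% of all genes with a window, with 1 gene called higher and 1 called lower. The REV-ERB and ROR site TAGGTCA was in 2.13%, with 4 in each direction. These are matches of letters in a short window, described without a test.

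Genes controlled by the clock moved in both directions too. Of 15 clock output genes, 3 were higher and 2 lower, with a list median of -0.15. The ubiquitin ligase gene Dtx4 had 1.75, 2.32 and 2.91 FPKM at CT16, against 0.841, 1.27 and 1.66 FPKM at CT12 (0.51 ± 0.09, adjusted p = 0.000290). Usp2, which encodes a deubiquitinase, was at 27.6 to 32.5 FPKM at CT16 and at 36.2 to 44.7 FPKM at CT12 (-0.42 ± 0.11, adjusted p = 0.0245), and neither gene's ranges overlapped. The uridine phosphorylase gene Upp2 fell by 0.51 and the genes Ypel2 and Leo1 rose by 0.48 and 0.52. With inner medulla markers as a covariate Usp2 (adjusted p = 0.0708) and Leo1 (0.34, adjusted p = 0.103) no longer passed, and leaving out 1 library ended the Leo1 call for 12 of 16 libraries and the Usp2 call for 4.

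A broad rise was seen in the chaperones of the endoplasmic reticulum. Of 18 genes in the list of ER chaperones and the unfolded protein response, 12 were higher and 0 lower at CT16, 17 had a change above 0, and the median was 0.38 beside 0.05 for all genes. In the ER, BiP (Hspa5) binds unfolded chains, protein disulfide isomerases form their disulfide bonds, and misfolded chains are sent out for degradation by a ligase complex. The list and the heat shock list were chosen with earlier results of these data known.

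Sdf2l1 (chromosome 16, 17130138 to 17132383), a partner of BiP, had 8.05, 11.1 and 16.6 FPKM at CT16, against 2.33, 4.25 and 6.62 FPKM at CT12 (1.28 ± 0.20, adjusted p = 0.000105). On the log2(FPKM + 1) scale it had the largest rise among the named genes that were called, and its ranges did not overlap. Creld2, an ER protein with disulfide isomerase activity, had 26.3, 39.8 and 55.7 FPKM at CT16, against 15.8, 18.9 and 27.3 FPKM at CT12 (1.01 ± 0.14, adjusted p = 3.30e-05). Hspa5 itself had 81.8, 119.9 and 159.2 FPKM at CT16, against 47.0, 63.6 and 85.4 FPKM at CT12 (0.90 ± 0.13, adjusted p = 3.40e-05), with overlap only between the lowest of CT16 and the highest of CT12.

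The secreted stress factor Manf rose by 0.80 ± 0.13 (adjusted p = 0.000290) and the large ER chaperone Hyou1 by 0.76 ± 0.15 (adjusted p = 0.00227). Hsp90b1, the HSP90 of the ER, was at 67.4 to 105.5 FPKM at CT16 and at 47.1 to 66.7 FPKM at CT12 (0.64 ± 0.10, adjusted p = 0.000187). In the degradation branch, the ligase gene Syvn1 (14.4 to 23.5 FPKM at CT16, 9.55 to 13.4 FPKM at CT12) rose by 0.62 and its partner Sel1l by 0.30. Pdia4, Pdia6, Dnajb11 and Calr rose by 0.46, 0.41, 0.35 and 0.36. Members that did not pass were Xbp1, the transcription factor of the response, at 0.30 ± 0.14 (adjusted p = 0.28), and Dnajc3, Pdia3, Canx and Dnajb9 at 0.22 to 0.28. Herpud1, a degradation adaptor that also belongs to the response, stood at -0.18 ± 0.09 (adjusted p = 0.322). Between 11 and 12 of the 18 were called whichever library was left out. The Calr call was lost for 10 of 16 libraries left out, after quantile normalization and after median centring, which also ended that of Dnajb11.

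The ER stress element, CCAAT followed after 9 bases by CCACG, is the site that ATF6 binds with NF-Y. It was searched after the values had been seen. It was found in 17 of the 9856 genes with a window (0.172%), of which 8 were called higher and 0 called lower. Those 8 were Hspa5, Creld2, Hsp90b1, Calr, Pdia6, Syvn1, Derl3, an ER degradation gene that rose by 0.77, and Alg12, a glycosylation gene that rose by 0.32. Alg12 and Creld2 are read in opposite directions from start sites next to each other and share 1 element. Of the 16 genes of the ER list with a window, 8 held it, among them Canx and Dnajc3, which did not pass. The stretches below are given 5′ to 3′ on the gene's strand with the element in capitals, for Hspa5 the element alone at chr2:34772025-34772043, since an annotated transcript covers it. The others lie at chr10:86705598-86705694 (minus), chr19:6046492-6046575 (plus), chr15:88819480-88819578 (plus) and chr8:84847035-84847133 (minus). In Creld2 and Calr the element runs on the opposite strand and reads in reverse complement. The Hsp90b1 window held 2 elements, of which 1 is shown.
Hspa5: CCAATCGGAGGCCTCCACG
Hsp90b1: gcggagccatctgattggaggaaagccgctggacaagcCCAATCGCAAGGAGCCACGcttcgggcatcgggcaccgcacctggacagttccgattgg
Syvn1: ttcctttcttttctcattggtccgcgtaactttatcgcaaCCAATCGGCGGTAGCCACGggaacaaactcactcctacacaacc
Creld2: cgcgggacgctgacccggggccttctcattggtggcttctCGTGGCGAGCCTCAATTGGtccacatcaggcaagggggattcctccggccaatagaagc
Calr: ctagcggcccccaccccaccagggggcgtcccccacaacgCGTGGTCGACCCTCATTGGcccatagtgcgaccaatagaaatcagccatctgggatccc

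Heat shock chaperones rose as well. Of 18 genes in this list, 11 were higher and 0 lower, all 18 had a change above 0, and the median was 0.54. Hsp90aa1, the inducible cytosolic HSP90, had 63.3, 97.0 and 125.6 FPKM at CT16, against 39.8, 45.8 and 73.4 FPKM at CT12 (0.84 ± 0.15, adjusted p = 0.00118). Hspa8, the constitutive HSC70 and the most abundant member, had 473.7, 767.6 and 849 FPKM at CT16, against 404, 484 and 628 FPKM at CT12 (0.56 ± 0.12, adjusted p = 0.00660). The ranges of both genes overlapped in part. Their co-chaperones moved with them, with Stip1, which links HSP70 to HSP90, at 0.63 ± 0.09 (adjusted p = 3.40e-05), the HSP40 genes Dnaja1 and Dnajb1 at 0.59 and 0.46, the HSP90 activator Ahsa1 at 0.48 and the immunophilin gene Fkbp4 at 0.39. Chordc1 rose by 0.44 without overlap (7.22 to 8.94 FPKM at CT16, 4.73 to 6.57 FPKM at CT12), and Hsp90ab1, Bag3 and Cacybp by 0.41, 0.37 and 0.57.

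The most inducible members varied widely between libraries and did not pass. Hspa1b had 7.22, 30.4 and 44.3 FPKM at CT16, against 2.29, 5.88 and 94.4 FPKM at CT12 (1.04 ± 0.71, adjusted p = 0.496). The highest single value was therefore a CT12 library. Hspa1a, nearly identical in sequence, so that the split of fragments between the pair is uncertain, stood at 0.75 ± 0.42 (adjusted p = 0.387), Hspb1 at 0.88 ± 0.30 (adjusted p = 0.112) and Hsph1 at 0.72 ± 0.32 (adjusted p = 0.270). The mitochondrial chaperonin genes Hspd1 and Hspe1 stood at 0.09 ± 0.09 and 0.23 ± 0.08, also short of the threshold. With inner medulla markers as a covariate, 10 of 18 passed and the median was 0.38. Cacybp and Bag3 lost their calls there, Hspe1 gained one (0.31, adjusted p = 0.0207), Hspa1b turned to -0.14, and Hspa1a and Hsph1 stood at 0.096 and 0.23. Leaving out 1 library gave 9 to 12 calls. The heat shock unit GAANNTTC or TTCNNGAA was in 8 of the 15 genes of this list with a window (53.3%) and in 12.1% of all such genes. Of those 8 genes Dnaja1 and Fkbp4 were called and the other 6 were not. Over all genes called higher the unit was in 20 of 155 (12.9%).

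**Figure D2:**
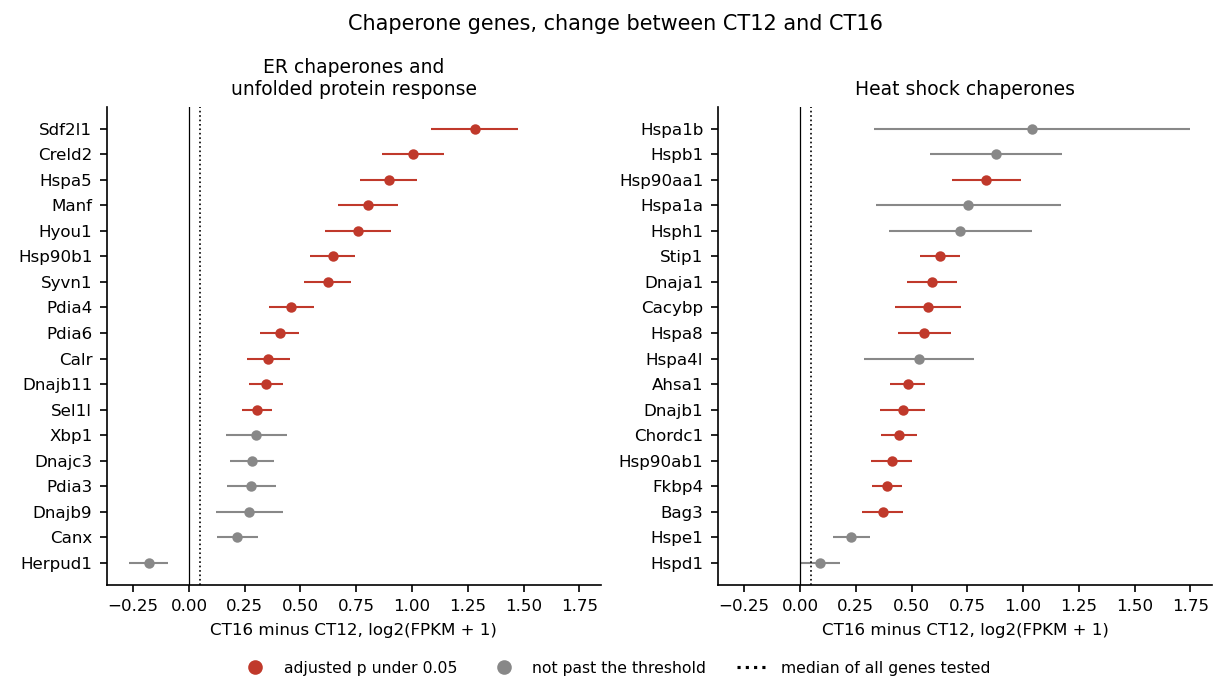
Change from CT12 to CT16 (horizontal axis, CT16 minus CT12 on the log2(FPKM + 1) scale, with SE from limma; 8 libraries per time) for the ER list (left) and the heat shock list (right), red where the adjusted p was under 0.05. All points but Herpud1 lie right of 0, and the dotted line at 0.048 is the median of all genes tested.

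Opposite to the chaperones, Cirbp, a cold-inducible RNA-binding protein whose RNA is known to fall as temperature rises, had 14.4, 17.4 and 20.4 FPKM at CT16, against 20.6, 28.6 and 39.2 FPKM at CT12 (-0.69 ± 0.15, adjusted p = 0.00814). The ranges met without overlapping. Its relative Rbm3 had a change of -0.19 and did not pass.

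Outside these lists, the rise in Nt5e was among the largest. Nt5e (chromosome 9, 88327197 to 88372092), which encodes the ecto-5′-nucleotidase CD73 that forms adenosine outside cells, had 6.11, 9.94 and 14.2 FPKM at CT16, against 2.73, 4.20 and 5.70 FPKM at CT12 (1.11 ± 0.16, adjusted p = 6.18e-05). All CT16 libraries were above all CT12 libraries. Tubb2a, a beta tubulin gene, also stood clear at 26.3 to 33.5 FPKM at CT16 and 11.8 to 24.1 FPKM at CT12 (0.91 ± 0.15, adjusted p = 0.000317). Slc10a2, the sodium-dependent bile acid transporter of the brush border, had 5.15, 11.9 and 14.8 FPKM at CT16, against 3.25, 5.38 and 9.64 FPKM at CT12 (0.82 ± 0.15, adjusted p = 0.00124).

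A member of the monocarboxylate transporter family, Slc16a6, had 3.37, 6.39 and 8.10 FPKM at CT16, against 2.15, 2.86 and 3.61 FPKM at CT12 (0.86 ± 0.14, adjusted p = 0.000290). Of the CT16 libraries, only Vehicle CT16 replicate 1 lay within the CT12 range. The lactate and pyruvate carrier gene Slc16a1 rose by 0.66 ± 0.15 (adjusted p = 0.0116). Both transporter genes belong to 1 family and were named under separate parts of the rule.

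The histone gene Hist2h3c2 had 1.53, 3.31 and 4.39 FPKM at CT16, against 0.376, 0.978 and 1.84 FPKM at CT12 (1.07 ± 0.16, adjusted p = 9.19e-05). Histone genes were then counted, after the values had been seen. Of 18 tested, 5 were higher and 0 lower, and all 18 had a change above 0, with a median of 0.41. Over all genes 1.5% were called higher and 63.6% had a change above 0, with a median of 0.048. Those called were Hist2h3c2, Hist3h2a, Hist2h2be, Hist1h2be and Hist3h2ba. Most histone genes have near-identical copies, and replication-dependent histone RNA has no poly(A) tail, so these values are uncertain.

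Both mitochondrial ribosomal RNAs rose. mt-Rnr2 (the large subunit RNA) had 710 to 2473 FPKM at CT16 and 364 to 1175 FPKM at CT12 (0.95 ± 0.16, adjusted p = 0.000347), and mt-Rnr1 (the small subunit RNA) rose by 0.81 ± 0.16 (adjusted p = 0.00203). These wide ranges held the difference between tables, and within the first and the second table mt-Rnr2 changed by 0.92 and 0.97. Of 13 mitochondrially encoded mRNAs 0 passed in limma, 0 of them with an unadjusted p under 0.05, and 0 in limma voom, with a median of 0.04. The tRNA gene mt-Ti, which overlaps mt-Nd1, rose by 1.05 ± 0.28 (adjusted p = 0.0333), a call lost after quantile normalization, after median centring and on leaving out any of 8 single libraries. How the library kit captured these RNAs without long poly(A) tails was not tested.

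Among the genes that fell, Cyp24a1 (chromosome 2, 170482708 to 170497145), the enzyme that breaks down active vitamin D, followed Dbp and Ciart in size. It had 3.37, 4.77 and 14.0 FPKM at CT16, against 8.70, 19.8 and 37.5 FPKM at CT12 (-1.60 ± 0.40, adjusted p = 0.0181). The step was -2.40 in D-Ala and -0.81 in Vehicle, and the difference between them did not pass the test. Of 15 genes of drug and vitamin D metabolism, Cyp24a1 was the only 1 to pass. The epoxygenase family members Cyp2j8 and Cyp2j9, outside that list, fell by 0.87 and 0.77 (adjusted p = 0.00409 and 0.000821), and reads of these similar genes may be shared.

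Igfbp1, a liver and kidney gene known to be induced by fasting, had 0.173, 0.689 and 1.46 FPKM at CT16, against 1.18, 2.42 and 5.33 FPKM at CT12 (-0.96 ± 0.23, adjusted p = 0.0152). Cpt1a, which admits fatty acids to mitochondria, fell by 0.38 ± 0.10 (adjusted p = 0.0405). These were the 2 of 17 fasting and FOXO targets that passed, and 0 were higher. Igfbp1 lost its call without D-Ala CT16 replicate 3 (adjusted p = 0.0526) and also without Vehicle CT12 replicate 3. The Cpt1a call was lost with the inner medulla covariate (adjusted p = 0.110), on the TPM scale, after quantile normalization, with mitochondrial genes left out of the scaling and for 12 of 16 single libraries left out. The sterol synthesis gene Msmo1 rose by 0.39, the 1 call among 19 genes of cholesterol synthesis and uptake, and Srebf1, the lipogenic transcription factor gene, by 0.43 among 12 of fatty acid synthesis. Both calls were lost with the covariate (adjusted p = 0.0755 for Msmo1 and 0.0555 for Srebf1), after quantile normalization, after median centring and for 12 of 16 single libraries left out.

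Of the amino acid transporters of the proximal tubule, 3 were lower. Slc6a19, the neutral amino acid transporter B0AT1 of the brush border, had 12.8, 18.1 and 31.2 FPKM at CT16, against 22.0, 33.4 and 51.3 FPKM at CT12 (-0.81 ± 0.18, adjusted p = 0.00938). Slc7a7 and Slc7a9, light chains of transporters for cationic amino acids on the basolateral and brush border side, fell by 0.66 ± 0.17 and 0.50 ± 0.13 (adjusted p = 0.0198 and 0.0288). Of 16 sugar and amino acid transporters these 3 were lower and Slc16a1 was higher, with a list median of -0.13. Others stood near 0, such as Slc3a1 at -0.01 and Slc1a1 at -0.07, or above it, such as Slc6a18 at 0.26, and did not pass. The markers of segments S1 and S2 had a median of -0.20 with 0 of 7 called, those of segment S3 a median of 0.15 with 0 of 5 called, and their part in these falls was not tested. With inner medulla markers as a covariate Slc6a19 still passed (-0.72, adjusted p = 0.0271), while Slc7a7 (-0.51, adjusted p = 0.0637) and Slc7a9 (-0.37, adjusted p = 0.0882) did not, and the Slc7a7 call was lost without D-Ala CT12 replicate 1, Vehicle CT12 replicate 2 or Vehicle CT16 replicate 3. The Slc7a9 call was lost for 9 of 16 single libraries left out, D-Ala CT12 replicate 1 among them, and on the TPM scale.

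**Figure D3:**
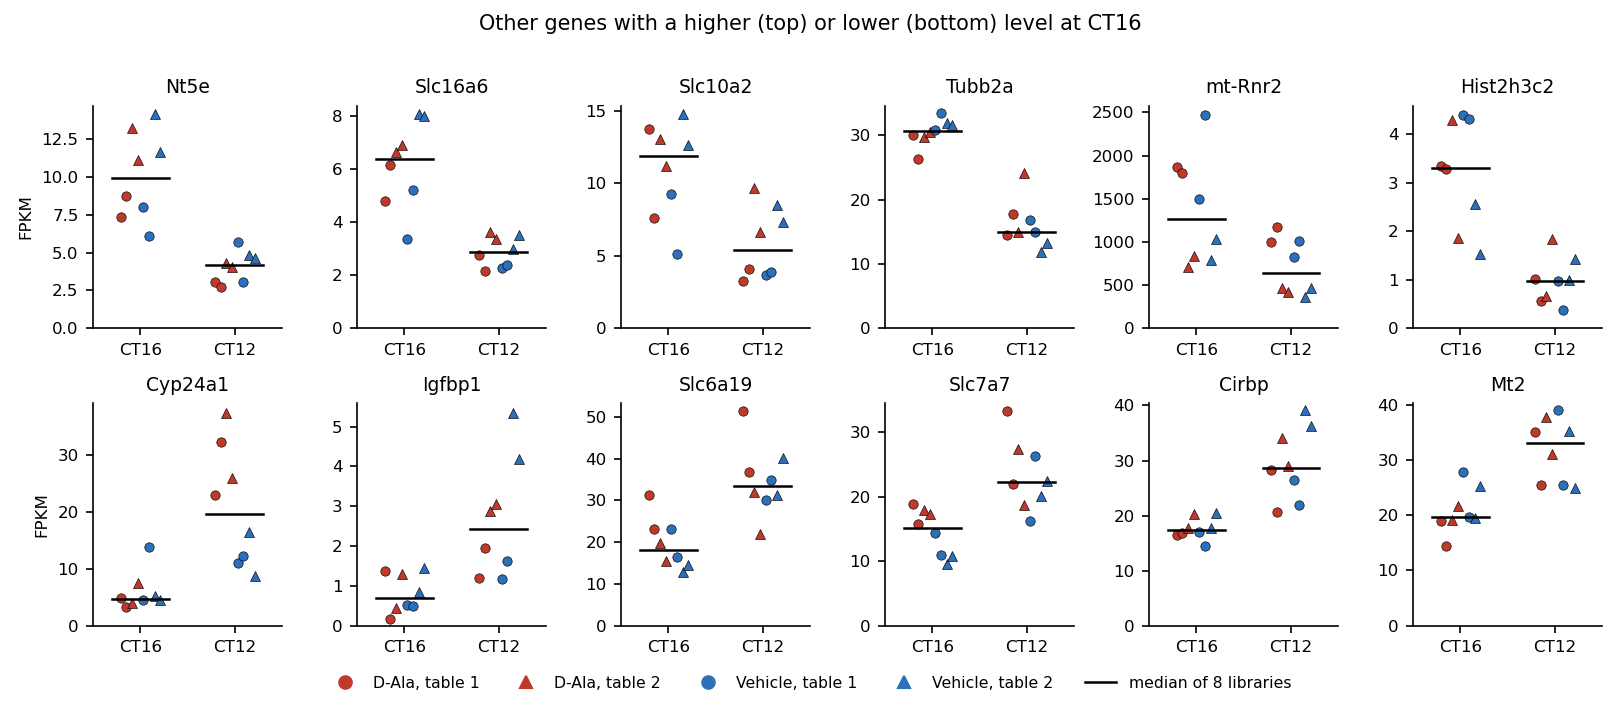
FPKM (vertical axes, linear from 0) of 6 genes that rose (top row) and 6 that fell (bottom row) in each library of CT16 (left) and CT12 (right), with colour for treatment, shape for table and a bar at the median of 8 libraries. Nt5e and Tubb2a separate the times fully in the top row and Cirbp in the bottom row, and mt-Rnr2 is higher in the first table (circles) than in the second (triangles) at both times.

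Metallothionein genes, whose products bind zinc and copper, fell within the glucocorticoid list. Mt2 had 14.4, 19.7 and 27.9 FPKM at CT16, against 25.0, 33 and 39.1 FPKM at CT12 (-0.59 ± 0.15, adjusted p = 0.0206), and Mt1 fell by 0.44 ± 0.11 (adjusted p = 0.0276). With Per1 they were the 3 of 13 called, all lower, beside 0.958% called lower over all genes. The other 10, among them Tsc22d3, Fkbp5 and Sgk1, did not pass. Members moved both ways, with 9 below 0 and 4 above it (Pdk4, Cdkn1a, Sgk1 and Tsc22d3), and the list median was -0.14. Neither metallothionein passed with the inner medulla covariate (adjusted p = 0.0637 and 0.0755), and the number of the 13 called ranged from 1 to 4 when 1 library was left out. Car9, a carbonic anhydrase of the hypoxia list, fell by 0.62 ± 0.17 (adjusted p = 0.0397) while P4ha1 and Ndrg1 of the same list rose by 0.48 and 0.49. The Car9 call was lost on the TPM scale, in limma voom, with a pseudocount of 0.1, with the inner medulla covariate (adjusted p = 0.0779) and on leaving out any of 9 single libraries, and the Ndrg1 call after median centring and on leaving out any of 5. Further falls were those of the DNA glycosylase gene Neil2 (-0.77 ± 0.15, without overlap) and of Tnfaip8 (-0.62 ± 0.13, without overlap).

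The remaining pathway lists held 0 or 1 call each, near what the 2.46% called over all genes gives in lists of this size. No gene passed among 30 of water and salt transport, 18 of gluconeogenesis, 13 of glycolysis, 15 of organic ion transport, 20 of nuclear oxidative phosphorylation, 20 cytosolic ribosomal proteins, 15 immediate early genes, 14 SRF and YAP targets, 15 of the NRF2 response, 13 of NAD metabolism, 6 of tubular injury and 8 of D-amino acid and alanine metabolism. Over the 14 pathway lists without a call, limma gave an unadjusted p under 0.05 for 28 of 206 genes (13.6%, beside 15.1% of all genes), and limma voom called 1, Nfe2l2. With the inner medulla covariate Dusp1 (-0.93, adjusted p = 0.00291), Hmox1 (0.65, adjusted p = 0.0402), Osgin1 (0.57, adjusted p = 0.0179) and Afmid (0.42, adjusted p = 0.0412) of these lists passed, and Dusp1 also after quantile normalization and after median centring. List medians of the lists just named ranged from -0.08 for NAD metabolism to 0.26 for SRF and YAP targets. The smallest adjusted p among the transport genes was that of the potassium channel gene Kcnj1 (0.40 ± 0.12, adjusted p = 0.0559). Osmolyte and urea genes had a median of 0.65 with 0 of 6 called, and 3 of them, Slc14a2, Akr1b3 and Slc6a12, are inner medulla markers. Single members passed in the remaining lists: Ddit3 (higher, 1 of 16 amino acid stress genes), Psmd11 (higher, 1 of 27 proteasome genes), Nolc1 (higher, 1 of 20 of ribosome biogenesis), Rsad2 (higher, 1 of 12 interferon genes), Plk3 (lower, 1 of 15 cell cycle genes), Gabarapl1 (lower, 1 of 10 autophagy genes) and Cpt1a again (1 of 29 of fatty acid oxidation). With the covariate Ddit3, Rsad2 and Plk3 lost their calls (adjusted p = 0.1003, 0.102 and 0.0552). Leaving out 1 library ended the call for 10 of 16 libraries for Ddit3, 8 for Rsad2, 12 for Gabarapl1, 3 for Plk3 and 2 for Nolc1.

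**Figure D4:**
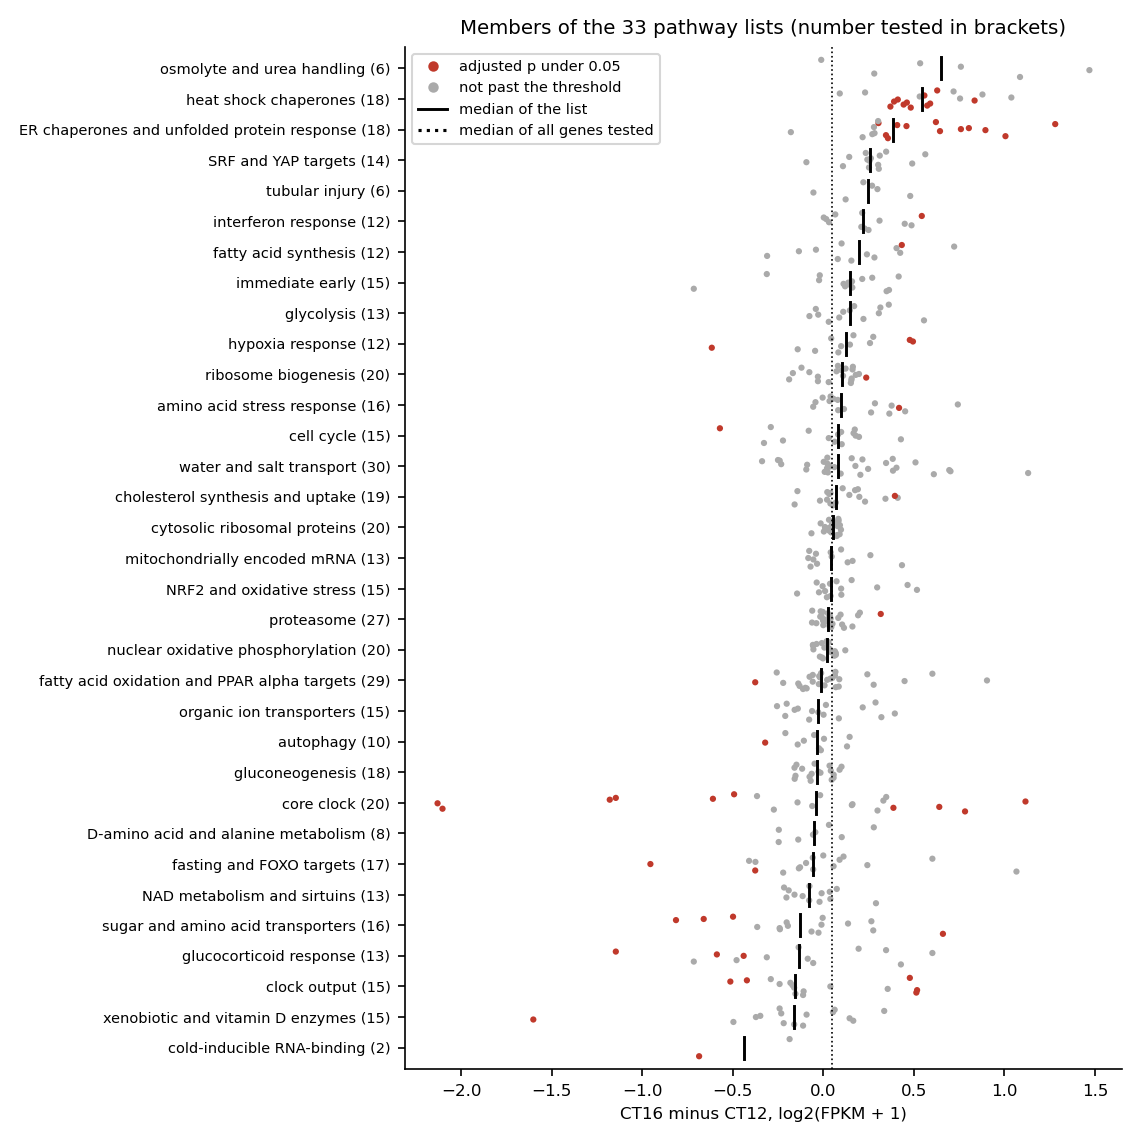
Change from CT12 to CT16 (horizontal axis, CT16 minus CT12 on the log2(FPKM + 1) scale) of every tested member of the 33 pathway lists, red where the adjusted p was under 0.05, with a bar at each list's median and a dotted line at the median of all genes tested (0.048). Heat shock and ER chaperones lie to the right with 11 and 12 red points, and the core clock spreads from -2.13 to 1.12 around a median near 0.

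No marker of any of the 20 cell type lists was called in limma or in limma voom (13 of 89, or 14.6%, had an unadjusted p under 0.05 in limma, beside 15.1% of all genes). Medians were highest for inner medulla (1.09, 5 of 5 above 0), urothelium (0.74, 5 of 5) and red blood cells (0.47, 5 of 6), and 0 of the 5 adrenal gland markers reached the filter. With the mean of the inner medulla markers as a covariate, an alternative added after the data were seen, 203 genes were higher and 116 lower, and 244 of the 367 were among them. All core clock calls and all 12 ER calls remained in number, at 4 higher and 6 lower and at 12 higher.

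The step was then compared between treatments. The D-Ala step minus the Vehicle step passed for 0 genes (0.0%) in limma and also 0 by limma voom on recovered fragments. In limma 434 of 14922 genes had an unadjusted p under 0.05, a smaller share than the 0.05 that chance alone gives. Leading clock and chaperone genes are given for the size of the step only. They were named among genes with 1 direction in all 4 combinations of treatment and table, so agreement between treatments was fixed by the choice. Dbp changed by -2.28 in D-Ala and -1.98 in Vehicle, Arntl by 0.75 in D-Ala and 0.82 in Vehicle, Sdf2l1 by 1.26 in D-Ala and 1.30 in Vehicle, and Hspa5 by 0.94 in D-Ala and 0.85 in Vehicle. Lowest in p, though far from the threshold, were the orphan receptor gene Nr4a1, the deadenylase gene Noct, Fmr1nb, Psmd11 and 1 clone-named gene. Nr4a1 stood at -0.63 in D-Ala and 0.59 in Vehicle, and Noct at -0.74 in D-Ala and 0.40 in Vehicle. With 4 libraries against 4, 13 of the 14922 genes passed in D-Ala alone and 14 in Vehicle alone, and 2 were shared (15.4% and 14.3% of the lists). Few calls survive with so few libraries. Of 71 named genes called, 10 kept the call in D-Ala alone and 4 in Vehicle alone. The size of the overlap therefore does not show that the treatments changed different genes.

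Tables were compared in the same way. The step in the second table minus the step in the first table passed for 0 genes (0.0%), with 677 at an unadjusted p under 0.05. That share of the genes tested is also below what chance alone gives. The 5 genes lowest in p, far from the threshold (smallest adjusted p in limma 0.9959), were Gm10288, Gm11042, Ccdc152, Gm26387 and Gssos1. The second table alone called 217 genes, of which 203 (93.5%) had the same sign in the first table. An unadjusted p under 0.05 there as well was found for 83 (38.2%), while 7.22% of all genes had such a p with either sign. For the same sign alone no share over all genes is given, so the 93.5% has no background beside it. The first table alone called 8, of which 7 had the same sign in the second table. The 2 tables share no library, so these are separate measurements.

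Within the day, the step from CT12 to CT16 had the second highest number of calls of the 6 steps of 4 h. CT4 against CT0 had 1176 calls (7.88%), CT8 against CT4 119 (0.797%), CT12 against CT8 34 (0.228%), CT20 against CT16 75 (0.503%) and CT0 against CT20 64 (0.429%), and neighbouring steps share libraries. Genes called higher at CT16 had their lowest mean at CT12 for 126 of 224, at CT8 for 68 and at CT4 for 30, and their highest mean at CT0 for 101, at CT16 for 78, at CT20 for 44 and at CT4 for 1. Genes called lower had their highest mean at CT8 for 74 of 143, at CT12 for 51 and at CT4 for 18, and their lowest at CT0 for 66, at CT16 for 55 and at CT20 for 22. The calls rest on the same CT12 and CT16 values, so these counts are in part fixed by the selection. A gene called higher could hardly peak at CT12 or be lowest at CT16, and the reverse holds for genes called lower. Shares over all genes are not given.

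Named genes fell into different parts of these courses. Sdf2l1, Hspa5, Creld2, Manf and Per2 had their highest mean of the day at CT16, whereas Arntl, Clock and Nfil3 were still below their CT0 mean. Arntl averaged 0.258, 1.16 and 3.25 FPKM at CT12, CT16 and CT20, and Nfil3 1.89, 5.14 and 8.74 FPKM at these times. Dbp averaged 74.4, 16.4 and 2.99 FPKM, still falling after CT16, while Per1 averaged 17.5, 7.46 and 7.87 FPKM. Slc6a19, Cyp24a1 and Igfbp1 had their lowest mean of the day at CT16. These rankings were not tested, and some were near ties. Sdf2l1 averaged 11.8 ± 3.16 FPKM (SD) at CT16 and 11.7 ± 5.35 FPKM at CT0. Hspa5 averaged 121 ± 22.2 FPKM at CT16 and 114 ± 30.3 FPKM at CT20, and Cyp24a1 6.01 ± 3.43 FPKM at CT16 and 6.40 ± 7.25 FPKM at CT0.

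**Figure D5:**
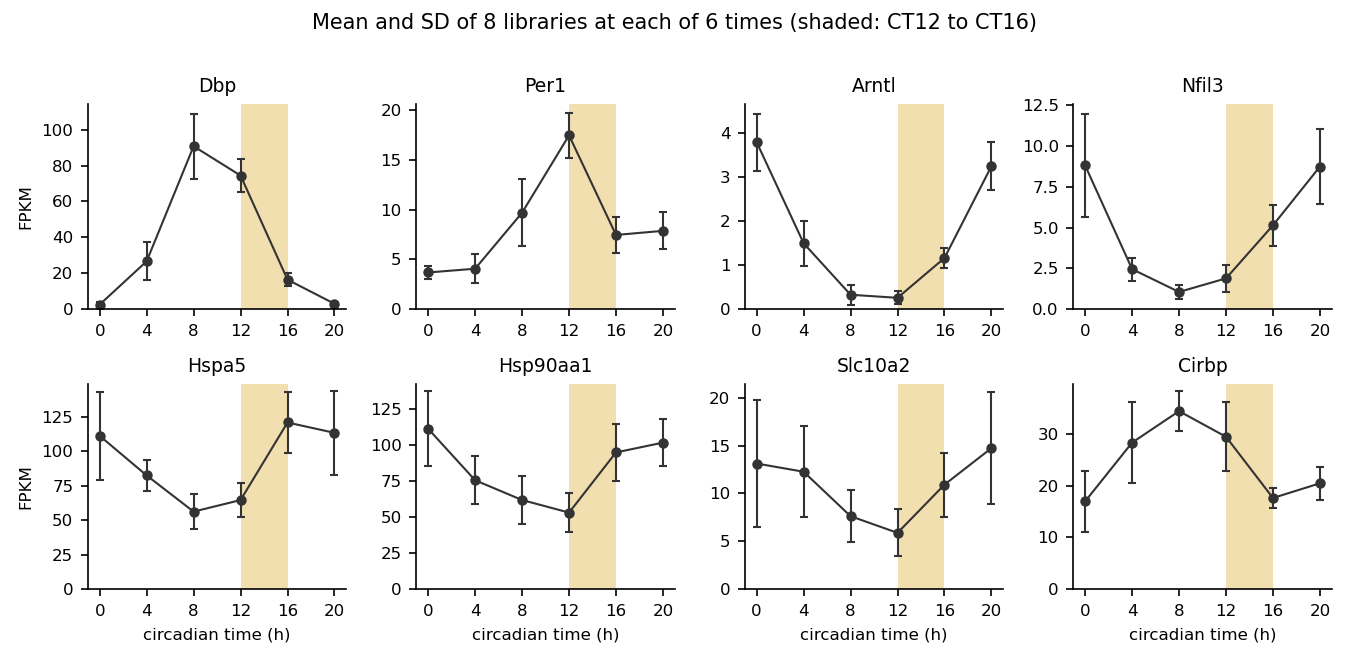
Mean FPKM with SD over 8 libraries (both treatments and tables) at each of 6 circadian times in hours for 8 genes, with the interval between CT12 and CT16 shaded. Dbp, Per1 and Cirbp fall and Arntl, Nfil3, Hspa5, Hsp90aa1 and Slc10a2 rise across the shaded interval. Hspa5 is at its highest mean at CT16, within the SD of its means at CT20 and CT0.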

How the data were processed

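RNA of mouse kidney was measured in 48 libraries, and treatment and time came from the labels. Per the labels' protocols, an RNeasy kit gave the RNA and a SMARTER mRNA-Seq kit the libraries. The authors deposited FPKM values for 49585 genes in 2 tables. Per the submitters' processing notes, the build is GRCm38 or mm10. Aligner and counter: not given in the sources used here. FPKM divides by each library's total, so a few abundant transcripts shift all others. Depth came from the steps of low FPKM values with GENCODE M21 exon lengths (found for 49326 genes); 97.0% to 97.5% of values under 20 fragments in genes with 1 transcript were whole within 0.05.

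A gene was kept (14922 were) if 4 or more of the 48 libraries reached an FPKM of 1. In R 4.3.3, limma 3.58.1 was fitted to log2(FPKM + 1) (12 groups of treatment and time, table as an additive term, moderation with a trend). The contrast was CT16 minus CT12, averaged over treatments; the treatment interaction came from the same fit and the table interaction from the 16 libraries. P-values are two-sided, adjusted by Benjamini-Hochberg over all genes. The fit was tested on simulated data. Replicate numbers follow sample order and pair no libraries. Replicate pairs differed beyond sampling noise (chi-square per gene at least 5.7; correlations 0.95 to 0.987), and p-values measure only the spread between these samples, some of which may be technical.

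The members and lists were chosen with earlier results of these data known. Named were the 15 higher and 15 lower genes of largest change with the same direction in all 4 combinations of treatment and table, leaving out clone-named models and small RNA genes (37 of the 367); all core clock genes; of each other list, the members lowest in p, at most 4; and the 5 smallest p-values of each interaction. List members called beyond these 4 and genes said to be counted later were added after their values were seen. Some genes are not reported here and were left out of the lists. Lists are described by counts and medians, with no set test. Alternatives were a pseudocount of 0.1, no filter, TPM, quantile normalization, median centring, scaling without mitochondrial genes, no table term, a mean for each table, treatment and time, robust moderation, limma voom on recovered fragments, the 16 libraries, 1 treatment or 1 table alone, and leaving out each library. Promoter windows are from RefSeq.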

Additional observations from a re-analysis of the deposited data

Results flagged for a closer look

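Among 162 sets of 8 libraries (81 named genes at 2 times, values taken relative to the table mean), 6 held 1 library far from the other 7. Chance gives about 1 in 20 of such sets, which is more than were found. Nt5e stood at 5.70 FPKM in Vehicle CT12 replicate 1, above the other 7 (2.73 to 4.85 FPKM). In the same library mt-Ti stood at 5.22 FPKM, low for its table, with the other 7 between 4.36 and 23.6 FPKM. Nr1d1 was at 15.2 FPKM in D-Ala CT12 replicate 1, below the rest (15.8 to 22.4 FPKM). Tnfaip8 was at 36.7 FPKM in Vehicle CT16 replicate 1 (others 39.8 to 49.2 FPKM) and at 137.0 FPKM in D-Ala CT12 replicate 1 (others 52.9 to 69.8 FPKM). Without that CT12 library the change of Tnfaip8 was -0.49, still called. Plk3 was at 7.93 FPKM in Vehicle CT16 replicate 1 (others 3.35 to 4.97 FPKM). The causes were not tested.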

How the results depend on the processing

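Against 224 genes higher and 143 lower at CT16, quantile normalization gave 131 and 239, median centring 114 and 267, and TPM 90 lower. Fewer were called with no table term (77 higher, 35 lower) and, with fewer libraries by construction, in the first table alone (5 and 3), the second table alone (140 and 77), Vehicle alone (9 and 5) and D-Ala alone (9 and 4). Leaving out 1 library gave 140 to 293 higher and 71 to 164 lower, and 0 to 1 genes for the difference between treatments, with 1 only without D-Ala CT12 replicate 2. Medians of all genes moved between -0.02 and 0.07 with the scaling. Of 71 named genes called, none changed direction under any alternative, and 63 kept the call after quantile normalization, 70 with limma voom, 56 with the inner medulla covariate and 35 without the table term. The 30 genes of largest change were chosen with 1 direction in all 4 combinations of treatment and table. For those 30, 1 treatment or 1 table alone could not reverse the sign. Of the 30 genes of largest change, 26 were called without each single library in turn (the exceptions were Car9, Igfbp1, Slc7a7 and mt-Ti). The difference in mitochondrial share was 1.22 points in the second table alone and 2.02 points in Vehicle alone, and -1.86 to 0.255 points with 1 library left out; the share of TPM equals that of FPKM by construction. Among clock genes short of the threshold, Cry2 stood at 0.030 in D-Ala alone, 0.025 in the first table alone and -0.11 to 0.0040 with 1 library left out, Rora at 0.060 in Vehicle alone, 0.015 in the first table alone and -0.071 to 0.035 with 1 library left out, and Csnk1e at -0.0067 in D-Ala alone and -0.095 with the covariate. For these changes the cause was not tested. No paired analysis was possible because the replicate numbers were given in sample order and mark no shared animal. They do mark the table (1 and 2 belong to one, 3 and 4 to the other), already a term of the fit. Depth limits genes near 1 FPKM, such as Arntl, Npas2 and Igfbp1, which are counted from few fragments.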

Other observations

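A set of genes outside the lists, chosen after their values were seen, also separated the 2 times without overlap. Ackr3, a scavenger receptor for the chemokine CXCL12, had 9.13, 12.2 and 14.7 FPKM as the lowest, median and highest of 8 libraries at CT16, against 5.25, 6.80 and 7.87 FPKM at CT12 (0.78 ± 0.13, adjusted p = 0.000438). Dynll1, a dynein light chain gene, had 24.6, 27.7 and 31.1 FPKM at CT16, against 15.5, 18.2 and 22.8 FPKM at CT12 (0.58 ± 0.08, adjusted p = 3.40e-05).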
